A study of Homo sapiens with 16 samples.

Results

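MDA-MB-231 and MDA-MB-436 are human triple-negative breast cancer cell lines of mesenchymal appearance. They were compared here as their reporter-negative sublines in low serum, a comparison of the lines within 1 reporter state. Both lines had been stably transfected with 7TGP, a construct in which 7 Tcf/Lef binding sites drive eGFP and which carries puromycin resistance, and both had been sorted repeatedly by flow cytometry into cells without eGFP (7TGP-NEG) and cells with eGFP (7TGP-POS). The members are the libraries of 2 groups, chosen by the sample names, namely both lines' 7TGP-NEG sublines, each harvested on day 3 in 0.5% FBS with 2 biological duplicates, 4 of the 16 libraries of the series. Every group, the controls included, thus carried the reporter and had been through drug selection and sorting, and each subline is 1 sorted pool of 1 line. The duplicates are cultures of that pool, so the p-values measure the spread between cultures. They do not measure the spread between patients or tumours. The study's methods give MDA-MB-231 in DMEM/F-12 and MDA-MB-436 in RPMI-1640, whereas the labels name DMEM for both. Where the media differed, line and medium cannot be told apart.

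The 4 libraries held 30659369 and 29960529 counts for MDA-MB-231 and 32667756 and 28636599 counts for MDA-MB-436 in replicates 1 and 2. Replicates correlated at r = 0.9989 within each line, on log2 CPM (counts per 1000000 of the library) across the genes tested, and differed by more than counting noise. All 8 low serum libraries entered 1 model in edgeR, which tested 16069 protein-coding genes. A gene was called differentially expressed (DEG) where edgeR's quasi-likelihood test gave an adjusted p (Benjamini-Hochberg) under 0.05 and its log2 fold change was 1 or more in either direction. Each log2 fold change is MDA-MB-231 minus MDA-MB-436 with its standard error, so positive values were higher in MDA-MB-231. Levels are TMM-normalised CPM in replicates 1 and 2 (n = 2 per group), and levels of different genes are compared only in TPM, which accounts for gene length. A group is said to be at the floor where none of its libraries held more than 3 counts. Its fold change is then given as a lower bound, the other line's mean CPM against 3 counts per library, with no term for the spread between cultures.

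Triple-negative tumours lack oestrogen and progesterone receptors and amplified ERBB2, and those of mesenchymal type have lost much of the epithelial programme: E-cadherin and other junction proteins are low, vimentin and matrix genes are high, and transcription factors such as ZEB1, SNAI2 or TWIST1 are present. In canonical Wnt signalling, secreted ligands bind Frizzled and LRP5/6 receptors, the complex of APC, AXIN and GSK3 is inhibited, and beta-catenin enters the nucleus to act with Tcf/Lef factors. Its target genes include its own feedback inhibitors, such as AXIN2, NKD1 and RNF43. The lines differ in known lesions: per the study, CDKN2A is mutated in MDA-MB-231 and BRCA1 in MDA-MB-436.

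The labels were checked first against lineage markers. ESR1, the oestrogen receptor, was near the floor in both lines, at 0.074 and 0.151 CPM in MDA-MB-231 and 0.192 and 0 CPM in MDA-MB-436. PGR, the progesterone receptor, reached 0.074 and 0.0757 CPM in MDA-MB-231 and 1.03 and 1 CPM in MDA-MB-436. Both receptors were thus at about 1 CPM or less in every library. ERBB2 was at 132 and 131 CPM in MDA-MB-231 and 64.4 and 63.8 CPM in MDA-MB-436, and the log2 fold change was 1.04 ± 0.05. CDH1 (E-cadherin) had 3 and 9 counts in MDA-MB-231 and 3 and 2 in MDA-MB-436, and KRT8 and KRT18, the simple epithelial keratins, were abundant and did not pass the threshold (log2 fold changes of 0.16 ± 0.05 and −0.17 ± 0.06, with −0.24 for KRT8 in limma on log2(TPM + 1)). Of the markers of leukocytes, endothelium, fat and muscle, 12 of 17 were tested. PTPRC (CD45) was at 2.07 and 2.31 CPM in MDA-MB-231 and 0.321 and 0.371 CPM in MDA-MB-436, CD14 at 5.07 and 6.62 CPM in MDA-MB-231 and 5.42 and 5.53 CPM in MDA-MB-436, VWF at 0.777 and 0.795 CPM in MDA-MB-231 and 1.41 and 1.08 CPM in MDA-MB-436 and CDH5 at 0.111 and 0.114 CPM in MDA-MB-231 and 0.128 and 0 CPM in MDA-MB-436. These 12 markers summed to 19.7 and 23.2 CPM in MDA-MB-231 and 16.9 and 16.8 CPM in MDA-MB-436, largely from LYZ, CD14, PTPRC, ITGAM and CLDN5. The part of other cells in the results was not tested.

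**Figure D1:**
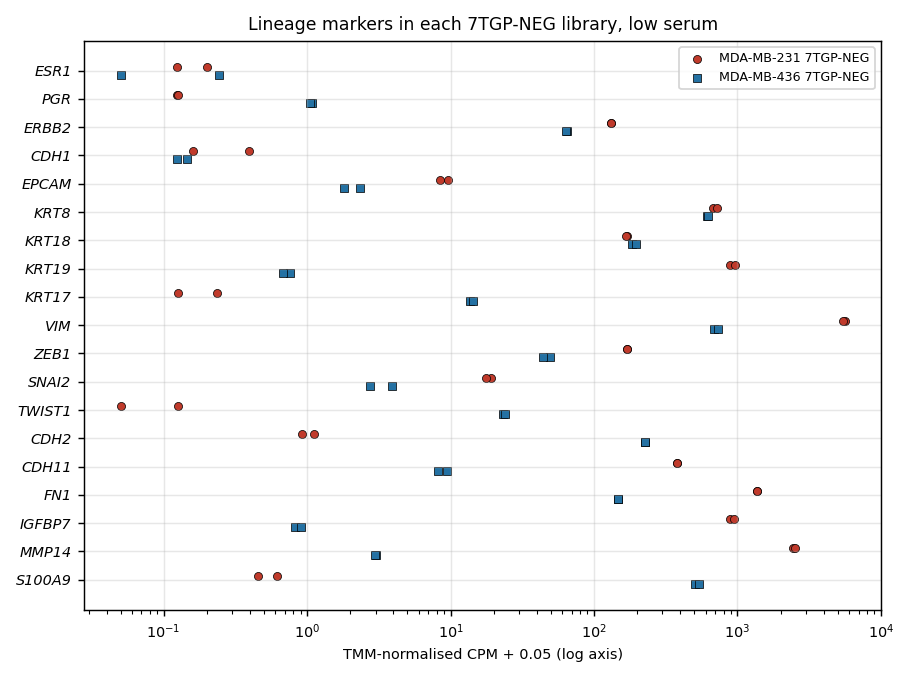
Levels of lineage markers in each library, as CPM plus 0.05 on a log axis, with 1 point per library (n = 2 per line) and genes in rows. KRT19, MMP14 and IGFBP7 lie far to the right in MDA-MB-231 and CDH2, TWIST1 and S100A9 in MDA-MB-436, while KRT8 and KRT18 lie close together.

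The lines differed at 6732 of the 16069 genes, or 41.9%, of which 3292 (20.5%) were higher in MDA-MB-231 and 3440 (21.4%) higher in MDA-MB-436. These shares are the background against which each gene group below is read. In limma on log2(TPM + 1), where the median of all genes lay at −0.19, the split was 1582 higher in MDA-MB-231 and 3601 higher in MDA-MB-436. The median log2 fold change over all genes was 0.01, with quartiles of −0.92 and 0.91, so many DEGs fell in any long gene list. The differences were large: 1036 DEGs higher in MDA-MB-231 and 1262 higher in MDA-MB-436 had an absolute log2 fold change of more than 3. In 579 of the DEGs higher in MDA-MB-231 the other line was at the floor, and the same held for 759 of those higher in MDA-MB-436. By edgeR's adjusted p under 0.05 alone, with no minimum fold change, 12730 genes (79.2%) differed. Where libraries are said below not to overlap between the lines, this describes the values and does not set a gene apart. The share of all genes without overlap was not counted.

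The same contrast was available in 2 further pairs of groups. Between the 7TGP-POS sublines in the same serum, 6245 genes (38.9%) were called, and 4818 genes had the same call in both, which is 71.6% of the calls between 7TGP-NEG sublines and 77.1% of those between 7TGP-POS sublines. A further 83 genes were called in opposite directions. Between the 7TGP-NEG sublines in standard serum (10% FBS, day 6, RNA selected for polyadenylation and sequenced separately), 7201 of 15414 genes (46.7%) were called. Of the 6609 low serum DEGs tested there, 5389 had the same call, and 26 were called in the opposite direction. In all 3 pairs, 1917 genes were higher in MDA-MB-231 and 2273 higher in MDA-MB-436. The plot of gene lists shows how the calls fell over the groups described below.

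**Figure D2:**
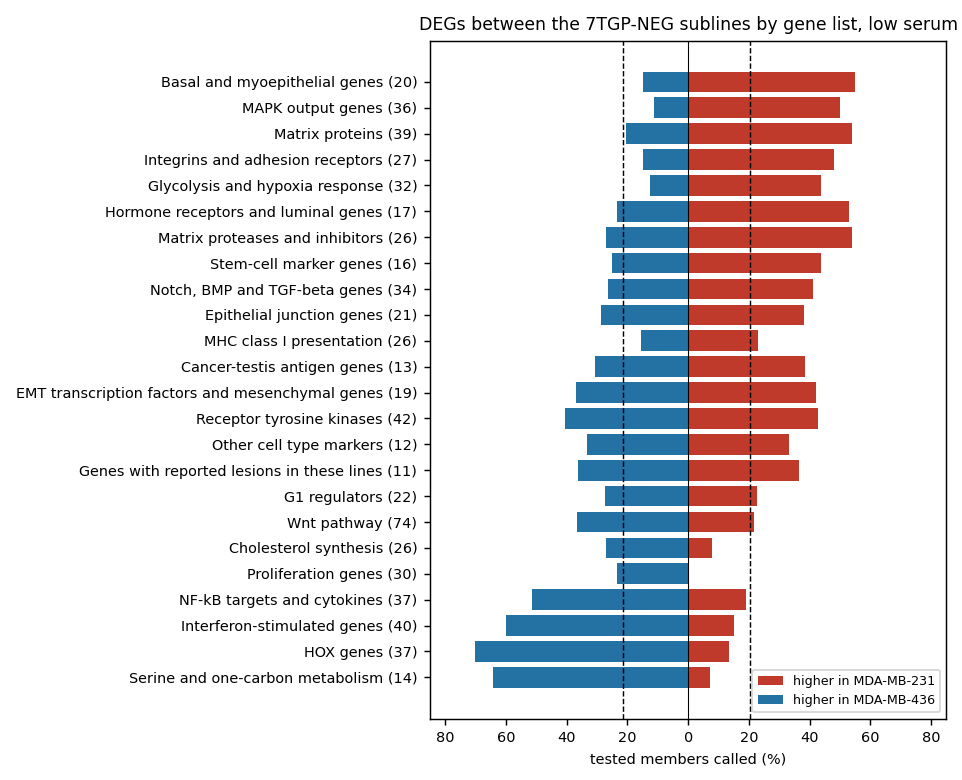
Percentage of the tested members of each gene list called higher in MDA-MB-231 (bars to the right) and higher in MDA-MB-436 (bars to the left), with the number tested in brackets. Dashed lines mark the shares over all 16069 genes, 20.5% and 21.4%. HOX genes, interferon-stimulated genes and serine metabolism extend furthest to the left, and matrix proteins, proteases and basal genes to the right.

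Keratins and luminal genes separated the lines in both directions. Of 17 tested hormone receptor and luminal genes, 9 were higher in MDA-MB-231 and 4 in MDA-MB-436 (76.5% called against 41.9%). KRT19, a keratin of simple epithelia, was at 893 and 959 CPM in MDA-MB-231 and 0.705 and 0.631 CPM in MDA-MB-436. It was abundant in both MDA-MB-231 libraries and nearly absent from both MDA-MB-436 libraries, with a log2 fold change of 10.42 ± 0.11 (adjusted p = 3.93e-39, edgeR). SPDEF, an ETS factor of luminal and secretory cells, was at 91 and 93.4 CPM in MDA-MB-231 and 0.321 and 0.0743 CPM in MDA-MB-436 (log2 fold change 8.77 ± 0.14). AGR2, a protein disulfide isomerase of secretory epithelium, was at 79 and 78.7 CPM in MDA-MB-231 and 0.0962 and 0.371 CPM in MDA-MB-436 (log2 fold change 8.43 ± 0.14). MLPH, a melanophilin expressed in luminal tumours, went the same way, at 196 and 201 CPM in MDA-MB-231 and 0.321 and 0.334 CPM in MDA-MB-436 (log2 fold change 9.23 ± 0.12). FOXA1, a pioneer factor for hormone receptors, was higher in MDA-MB-436, at 0.037 and 0.0757 CPM in MDA-MB-231 and 4.39 and 5.65 CPM in MDA-MB-436, as was ELF3, an epithelial ETS factor, at 1.22 and 1.51 CPM in MDA-MB-231 and 44 and 48.5 CPM in MDA-MB-436. The luminal list therefore held no shared direction for its transcription factors, of which 2 were higher in each line.

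Basal genes were higher in MDA-MB-231 in 11 of 20 cases and in MDA-MB-436 in 3 (70% called against 41.9%). The 3 were all keratins. KRT17 was at 0.185 and 0.0757 CPM in MDA-MB-231 and 13.6 and 14.2 CPM in MDA-MB-436 and KRT16 at 0.555 and 0.341 CPM in MDA-MB-231 and 3.27 and 2.6 CPM in MDA-MB-436, against the reverse order for the membrane and matrix-anchoring genes. LAMA3 and LAMB3, chains of laminin-332, were both higher in MDA-MB-231, with log2 fold changes of 4.19 ± 0.07 and 3.62 ± 0.05. The receptor of this laminin is the integrin pair ITGA6 and ITGB4, and both were higher in the same line. ITGA6 was at 1038 and 1059.8 CPM in MDA-MB-231 and 65.5 and 65.9 CPM in MDA-MB-436 (log2 fold change 4.0 ± 0.06). ITGB4 was at 765 and 683 CPM in MDA-MB-231 and 181 and 188 CPM in MDA-MB-436 (log2 fold change 1.97 ± 0.05). TP63, the basal transcription factor, was at 5.66 and 4.92 CPM in MDA-MB-231 and 0.77 and 0.669 CPM in MDA-MB-436. CAV1 and CAV2, which form caveolae, differed by 3.65 ± 0.06 and 2.75 ± 0.07, and by 1.27 and 1.18 in the 7TGP-POS pair.

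Epithelial junction genes were mixed, with 8 of 21 higher in MDA-MB-231 and 6 in MDA-MB-436 (66.7% called against 41.9%). Claudins went both ways: CLDN7 was at 46.9 and 47.5 CPM in MDA-MB-231 and 0.192 and 0.186 CPM in MDA-MB-436 and CLDN4 at 68.2 and 70.4 CPM in MDA-MB-231 and 6.73 and 7.21 CPM in MDA-MB-436, whereas CLDN1 was at 2.37 and 3.07 CPM in MDA-MB-231 and 42.3 and 43.8 CPM in MDA-MB-436. The 4 libraries did not overlap between lines for any of these claudins. EPCAM was at 9.51 and 8.44 CPM in MDA-MB-231 and 2.28 and 1.75 CPM in MDA-MB-436 (log2 fold change 2.14 ± 0.17). ESRP2, a splicing regulator of epithelial isoforms, was at 5.52 and 6.06 CPM in MDA-MB-231 and 0.545 and 0.557 CPM in MDA-MB-436 (log2 fold change 3.38 ± 0.23), while GRHL1, a Grainyhead factor, was higher in MDA-MB-436 by a log2 fold change of −3.59 ± 0.15.

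The EMT transcription factors were divided between the lines. VIM was high in both, at 5624 and 5406 CPM in MDA-MB-231 and 690.3 and 728 CPM in MDA-MB-436, with a log2 fold change of 2.96 ± 0.06. ZEB1 was higher in MDA-MB-231, at 170.0 and 170.5 CPM in MDA-MB-231 and 49.7 and 44.3 CPM in MDA-MB-436 (log2 fold change 1.85 ± 0.06), and so was SNAI2, at 19 and 17.5 CPM in MDA-MB-231 and 3.85 and 2.67 CPM in MDA-MB-436 (log2 fold change 2.47 ± 0.12). The other 6 called factors of the 9 tested were higher in MDA-MB-436. TWIST1 had 0 and 2 counts in MDA-MB-231 and 727 and 642 in MDA-MB-436, so that MDA-MB-436 was at least 210.0-fold higher, and for TWIST2 at least 71.8-fold. SNAI1 was at 0.555 and 0.568 CPM in MDA-MB-231 and 5.96 and 6.02 CPM in MDA-MB-436 (log2 fold change −3.40 ± 0.23). ZEB2 was at 27.7 and 28.2 CPM in MDA-MB-231 and 60.8 and 63.9 CPM in MDA-MB-436 (log2 fold change −1.16 ± 0.06). The mesenchymal cadherins differed in opposite directions: CDH2 (N-cadherin) was at 1.07 and 0.87 CPM in MDA-MB-231 and 228 and 226 CPM in MDA-MB-436, with a log2 fold change of −7.86 ± 0.09 (adjusted p = 4.46e-43, edgeR). CDH11 (OB-cadherin) showed the reverse, at 381 and 381 CPM in MDA-MB-231 and 8.14 and 9.43 CPM in MDA-MB-436 (log2 fold change 5.44 ± 0.07). Neither line's libraries overlapped the other's for either cadherin. The directions of CDH2, CDH11, ZEB1, SNAI2 and TWIST1 were the same in the 7TGP-POS pair (log2 fold changes of −7.12, 4.99, 1.95 and 3.81 for the first 4).

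Matrix genes leaned towards MDA-MB-231. Of 39 tested, 21 were higher in MDA-MB-231 and 8 in MDA-MB-436, or 74.4% called against 41.9% of all genes, with a median log2 fold change of 1.45 against 0.01. With genes at the floor set to their bound this median was 1.05, and its lowest value over the alternatives tried was 0.42. In the 7TGP-POS pair 18 were higher in MDA-MB-231 and 13 in MDA-MB-436, and in standard serum 18 and 10. FN1 (fibronectin) was at 1371 and 1374 CPM in MDA-MB-231 and 147 and 146 CPM in MDA-MB-436 (log2 fold change 3.23 ± 0.05). THBS1 (thrombospondin) was at 1459 and 1399 CPM in MDA-MB-231 and 49.8 and 49.7 CPM in MDA-MB-436 (log2 fold change 4.84 ± 0.06). IGFBP7, an insulin-like growth factor-binding matrix protein, was at 883 and 944 CPM in MDA-MB-231 and 0.77 and 0.854 CPM in MDA-MB-436 (log2 fold change 10.13 ± 0.09). COL13A1, a transmembrane collagen, was at 628 and 622 CPM in MDA-MB-231 and 1.06 and 0.929 CPM in MDA-MB-436, and COL6A3 had 3640 and 3406 counts in MDA-MB-231 and 3 and 0 in MDA-MB-436, at least 1269.9-fold higher in MDA-MB-231. Of 14 collagens, 8 were higher in MDA-MB-231, 1 in MDA-MB-436 and 5 were not called. Those not called included COL5A1 (0.14 ± 0.05), COL4A2 (0.21 ± 0.05) and COL6A1 (0.47 ± 0.05). These 3 were not level throughout: in the 7TGP-POS pair COL4A2 was at 1.30 and COL6A1 at −1.07. In standard serum COL5A1 was at −2.05. Of the 7 crosslinking enzymes, 5 were higher in MDA-MB-231. They included LOX, at 135 and 128 CPM in MDA-MB-231 and 2.89 and 2.86 CPM in MDA-MB-436, PLOD2, at 239 and 236 CPM in MDA-MB-231 and 19.8 and 20.1 CPM in MDA-MB-436, and LOXL1, which had 1342 and 1450 counts in MDA-MB-231 and 3 and 0 in MDA-MB-436. Matrix genes higher in MDA-MB-436 were led by FBLN2, at 0.74 and 0.87 CPM in MDA-MB-231 and 134 and 133 CPM in MDA-MB-436, BGN (biglycan), at least 125-fold higher, and FBN2, at 0.592 and 0.984 CPM in MDA-MB-231 and 109 and 109 CPM in MDA-MB-436. FBN1, the paralogue of FBN2, was level between the lines at 147 and 149 CPM in MDA-MB-231 and 152 and 146 CPM in MDA-MB-436.

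Among 26 proteases and inhibitors, 14 were higher in MDA-MB-231 and 7 in MDA-MB-436 (80.8% called against 41.9%). MMP14, the membrane-type collagenase that activates MMP2, was at 2425 and 2506 CPM in MDA-MB-231 and 2.95 and 2.93 CPM in MDA-MB-436, with a log2 fold change of 9.71 ± 0.09 (adjusted p = 5.28e-47, edgeR). Both MDA-MB-231 libraries lay far above both MDA-MB-436 libraries. MMP1, the interstitial collagenase, was at 446 and 458 CPM in MDA-MB-231 and 1.38 and 1.89 CPM in MDA-MB-436 (log2 fold change 8.12 ± 0.10). MMP2 itself was low in both lines, at 0.074 and 0.303 CPM in MDA-MB-231 and 4.26 and 4.09 CPM in MDA-MB-436, and higher in MDA-MB-436 (log2 fold change −4.45 ± 0.29). In the plasminogen system no member was higher in MDA-MB-436, and 5 of 7 were higher in MDA-MB-231. PLAT (tissue activator) was at 1155 and 1208 CPM in MDA-MB-231 and 10.7 and 11.7 CPM in MDA-MB-436 and PLAU (urokinase) at 594 and 586 CPM in MDA-MB-231 and 173 and 174 CPM in MDA-MB-436. TIMP3, a matrix-bound inhibitor of metalloproteases, was at 725 and 744 CPM in MDA-MB-231 and 2.73 and 3.49 CPM in MDA-MB-436 (log2 fold change 7.89 ± 0.08), and TIMP1 did not pass the threshold (0.76 ± 0.07).

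Of 16 integrin subunits, 11 were higher in MDA-MB-231 (81.2% called in either direction against 41.9%). ITGA2, the collagen-binding partner of ITGB1, was at 1168 and 1173 CPM in MDA-MB-231 and 73.4 and 72.9 CPM in MDA-MB-436 (log2 fold change 4.0 ± 0.06). ITGB1 was at 1828 and 1869 CPM in MDA-MB-231 and 476 and 471 CPM in MDA-MB-436 (log2 fold change 1.97 ± 0.05). ITGAV did not differ past the threshold, at 0.05 ± 0.05. Only ITGA4 and ITGA7 of the 16 were higher in MDA-MB-436, and ITGA4 was at 0.037 and 0.0757 CPM in MDA-MB-231 and 17.2 and 17.4 CPM in MDA-MB-436, at least 154-fold higher. Further adhesion molecules of the neural type were higher in MDA-MB-436: NCAM1, at 0.074 and 0.227 CPM in MDA-MB-231 and 29.9 and 27.2 CPM in MDA-MB-436, and L1CAM, at 102 and 92.4 CPM in MDA-MB-231 and 466 and 468 CPM in MDA-MB-436. CD44, which is used to define stem-like breast cancer cells, was at 467 and 470.4 CPM in MDA-MB-231 and 392 and 408 CPM in MDA-MB-436 (log2 fold change 0.23 ± 0.05, or −0.17 in limma on log2(TPM + 1)) and was not called.

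The genes with reported lesions were next examined for their RNA. On chromosome 9 (GRCh37), MDA-MB-231 was at the floor for HACD4, IFNB1, KLHL9 and MTAP, 4 neighbours among expressed genes between 20999508 and 21937650, and again for CDKN2B, DMRTA1 and ELAVL2 between 22002902 and 23826335. CDKN2A, which lies between these runs, had 4 and 5 counts in MDA-MB-231 and 3764 and 3440 in MDA-MB-436. It encodes the p16 inhibitor of CDK4/6 and was thus at 0.148 and 0.189 CPM in MDA-MB-231 and 121 and 128 CPM in MDA-MB-436 (log2 fold change −9.49 ± 0.14). MTAP, the methylthioadenosine phosphorylase beside it, had 1 and 0 counts in MDA-MB-231 and 1174 and 1006 in MDA-MB-436 and MDA-MB-436 was at least 334-fold higher, and for CDKN2B at least 148-fold. MDA-MB-231 thus held few or no counts over these genes. CDKN2A, CDKN2B and MTAP were called higher in MDA-MB-436 in the other 2 pairs as well. In MDA-MB-436, NF2 (merlin) was at 22.8 and 22.2 CPM in MDA-MB-231 and 0.257 and 0.223 CPM in MDA-MB-436 (log2 fold change 6.52 ± 0.20). RB1 was at 90.6 and 91.4 CPM in MDA-MB-231 and 11.3 and 11.1 CPM in MDA-MB-436 (log2 fold change 3.02 ± 0.07), both far below MDA-MB-231. BRCA1 (−0.28 ± 0.07) did not pass the threshold. RNA levels do not show whether the proteins were made or active.

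Of 22 regulators of G1, 5 were higher in MDA-MB-231 and 6 in MDA-MB-436 (50% called, near the 41.9% of all genes). CCND1 (cyclin D1) was at 1429 and 1427 CPM in MDA-MB-231 and 145 and 145 CPM in MDA-MB-436 (log2 fold change 3.30 ± 0.05). CDK6 was at 137 and 121 CPM in MDA-MB-231 and 15.5 and 15.2 CPM in MDA-MB-436 (log2 fold change 3.07 ± 0.07), both higher in MDA-MB-231. CCNE1 (cyclin E1) was higher in MDA-MB-436, at 3.85 and 2.95 CPM in MDA-MB-231 and 29.9 and 28.3 CPM in MDA-MB-436 (log2 fold change −3.09 ± 0.11), and CDK4 (−0.51 ± 0.06) did not pass the threshold. CDKN1A (p21) was at 182 and 195 CPM in MDA-MB-231 and 44 and 44.9 CPM in MDA-MB-436 (log2 fold change 2.08 ± 0.06). It lies in a stretch of 50 neighbouring genes on chromosome 6, FKBP5 to RPL7L1. The median there was 1.72, and 41 of the 50 were higher in MDA-MB-231. Proliferation genes stood below the background: 7 of 30 were called (23.3% against 41.9%), all of them higher in MDA-MB-436 (13 in limma on log2(TPM + 1)), and the median log2 fold change was −0.55, or −0.94 at the lowest of the alternatives tried. MKI67 was at 379 and 360.2 CPM in MDA-MB-231 and 413 and 398 CPM in MDA-MB-436, a log2 fold change of −0.13 ± 0.05 that was not called. RRM2, a subunit of ribonucleotide reductase, was at 113 and 112 CPM in MDA-MB-231 and 586 and 599.6 CPM in MDA-MB-436 (log2 fold change −2.40 ± 0.05). MCM4, of the replicative helicase, was at 115 and 118 CPM in MDA-MB-231 and 360.0 and 359.6 CPM in MDA-MB-436 (log2 fold change −1.62 ± 0.05). In standard serum 24 of the 30 were called higher in MDA-MB-436. The difference between serum conditions was not tested, since library preparation and sequencing changed with serum.

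Output genes of the MAPK pathway, which carries growth factor signals, were higher in MDA-MB-231 in 18 of 36 cases and in MDA-MB-436 in 4. Of all genes 41.9% were called, and of these output genes 61.1%. Their median log2 fold change was 0.98 against 0.01 for all genes, and 0.54 at the lowest of the alternatives tried. DUSP6, the ERK phosphatase, was at 951 and 995 CPM in MDA-MB-231 and 8.63 and 9.14 CPM in MDA-MB-436, with a log2 fold change of 6.78 ± 0.07 (adjusted p = 1.63e-45, edgeR). DUSP4 was at 1457 and 1464 CPM in MDA-MB-231 and 39.1 and 39.4 CPM in MDA-MB-436 (log2 fold change 5.22 ± 0.06). The Sprouty inhibitors SPRY1, SPRY2 and SPRY4 differed by 3.64 ± 0.08, 2.12 ± 0.05 and 1.70 ± 0.05. ETV1 was higher in MDA-MB-231 (2.59 ± 0.06), whereas ETV4 (0.55 ± 0.05), ETV5 (0.56 ± 0.05) and MYC (0.86 ± 0.05) did not pass the threshold. AREG and HBEGF, ligands of EGFR, were at 7.63 and 7.27 CPM in MDA-MB-231 and 0.673 and 0.594 CPM in MDA-MB-436 and 68 and 65.8 CPM in MDA-MB-231 and 10.3 and 10.5 CPM in MDA-MB-436. The 4 output genes higher in MDA-MB-436 were DUSP1 (−1.21 ± 0.06), EREG (−1.15 ± 0.06), LIF (−1.30 ± 0.05) and IL24 (−2.44 ± 0.38). In the 7TGP-POS pair 17 output genes were higher in MDA-MB-231 and 0 in MDA-MB-436, and in standard serum 19 and 1, LIF. IL24 was called in the opposite direction in both (4.0 and 3.25).

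Receptor tyrosine kinases differed at 35 of 42 genes (83.3% against 41.9%), about equally in each direction, with 18 higher in MDA-MB-231 and 17 in MDA-MB-436, or 10 and 12 in limma on log2(TPM + 1). Each line thus had its own set. In MDA-MB-231, AXL was at 1574 and 1603 CPM in MDA-MB-231 and 151 and 146 CPM in MDA-MB-436 (log2 fold change 3.42 ± 0.06). MST1R (RON), a relative of MET, was at 55.2 and 59.1 CPM in MDA-MB-231 and 0.994 and 0.26 CPM in MDA-MB-436 (log2 fold change 6.44 ± 0.28). All 4 ERBB receptors were higher in MDA-MB-231, with EGFR at 602 and 553 CPM in MDA-MB-231 and 225 and 221 CPM in MDA-MB-436 (log2 fold change 1.37 ± 0.05). Of the 4, 2 had the same call in the 7TGP-POS pair and 3 in standard serum. ERBB2, at 1.04 here, was at 0.38 and 0.61 there and was called in neither. In MDA-MB-436, FGFR2 was at 0.074 and 0.114 CPM in MDA-MB-231 and 31.8 and 35.1 CPM in MDA-MB-436 (at least 298-fold higher), FLT4 (VEGFR3) at 0.185 and 0.0757 CPM in MDA-MB-231 and 64.6 and 61.1 CPM in MDA-MB-436 and DDR2, a collagen receptor, at 4.11 and 3.52 CPM in MDA-MB-231 and 245 and 238 CPM in MDA-MB-436. The log2 fold changes of FLT4 and DDR2 were −8.86 ± 0.17 and −5.98 ± 0.08. RET had 0 and 2 counts in MDA-MB-231 and 604 and 496 in MDA-MB-436 and MDA-MB-436 was at least 168-fold higher. These receptors of MDA-MB-436 were near or at the floor in both MDA-MB-231 libraries, except DDR2. The directions of AXL, MST1R, FGFR2, FLT4, DDR2 and RET were the same in the 7TGP-POS pair and in standard serum.

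Because the sublines were sorted by a Wnt reporter, the pathway was described by role. Of 74 tested members, 16 were higher in MDA-MB-231 and 27 in MDA-MB-436 (58.1% called against 41.9%). Among the ligands, 6 of 13 were higher in MDA-MB-436 and 3 in MDA-MB-231 (69.2% called against 41.9%). WNT5A, which acts largely outside the beta-catenin pathway, was at 1.48 and 1.51 CPM in MDA-MB-231 and 36.6 and 36.2 CPM in MDA-MB-436 (log2 fold change −4.60 ± 0.11), while its paralogue WNT5B was at 21.5 and 22.6 CPM in MDA-MB-231 and 5 and 5.79 CPM in MDA-MB-436 (log2 fold change 2.04 ± 0.11). WNT7B was at 40.4 and 41.8 CPM in MDA-MB-231 and 8.63 and 9.99 CPM in MDA-MB-436 (log2 fold change 2.15 ± 0.08). The canonical ligand WNT3A was at 0.037 and 0.114 CPM in MDA-MB-231 and 2.28 and 1.89 CPM in MDA-MB-436, and WNT3 at 5.78 and 5.07 CPM in MDA-MB-231 and 20.3 and 17.9 CPM in MDA-MB-436. By TPM the leading ligand was WNT7B (17.7 TPM, ahead of WNT5B at 11.2 TPM) in MDA-MB-231 and WNT5A (15.8 TPM, ahead of WNT3 at 12.8 TPM) in MDA-MB-436.

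Receptors were higher in MDA-MB-231 in 6 of 18 cases and in MDA-MB-436 in 4 (55.6% called against 41.9%). LRP5 was at 522 and 518 CPM in MDA-MB-231 and 77.5 and 74.6 CPM in MDA-MB-436 (log2 fold change 2.77 ± 0.05), and LRP6, its paralogue, did not pass the threshold (−0.55 ± 0.05). FZD8 was higher in MDA-MB-231 (3.20 ± 0.11), and FZD9 and FZD10 were higher in MDA-MB-436, FZD9 at 0.111 and 0 CPM in MDA-MB-231 and 7.92 and 7.69 CPM in MDA-MB-436 and FZD10 with 1 and 0 counts in MDA-MB-231 and 51 and 50 in MDA-MB-436. The ROR receptors of WNT5A divided, with ROR1 at 36.5 and 34.5 CPM in MDA-MB-231 and 8.66 and 7.76 CPM in MDA-MB-436 and ROR2 at 0.037 and 0 CPM in MDA-MB-231 and 3.33 and 2.71 CPM in MDA-MB-436. By TPM the leading receptor was LRP5 (184 TPM, ahead of FZD2 at 67.6 TPM) in MDA-MB-231 and LRP6 (72.6 TPM, ahead of RYK at 41.7 TPM) in MDA-MB-436. Of 11 secreted inhibitors and R-spondins, 7 were higher in MDA-MB-436 and 1, DKK1, in MDA-MB-231 (72.7% called against 41.9%). DKK1, which blocks LRP5/6, was at 171 and 171 CPM in MDA-MB-231 and 24.4 and 22.5 CPM in MDA-MB-436 (log2 fold change 2.87 ± 0.06). SFRP1, which binds ligands, was at 1.18 and 1.4 CPM in MDA-MB-231 and 21.1 and 20.4 CPM in MDA-MB-436 (log2 fold change −4.0 ± 0.14). The 4 R-spondins, which sustain Frizzled on the surface, were all called higher in MDA-MB-436, but at a mean of 1.97 CPM (RSPO3) or less.

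Of 12 genes of the destruction complex, Dishevelled and beta-catenin, 3 were called (25% against 41.9%). CTNNB1 (beta-catenin) was at 1001 and 1036 CPM in MDA-MB-231 and 296 and 290.5 CPM in MDA-MB-436 (log2 fold change 1.80 ± 0.05), DVL1 at 294 and 329 CPM in MDA-MB-231 and 106 and 104 CPM in MDA-MB-436 (log2 fold change 1.57 ± 0.06). TNKS (tankyrase), which marks AXIN for degradation, was at 44.6 and 42.8 CPM in MDA-MB-231 and 145 and 143 CPM in MDA-MB-436 (log2 fold change −1.72 ± 0.06). APC (0.81 ± 0.06), AXIN1 (−0.99 ± 0.06) and GSK3B (−0.83 ± 0.05) did not pass the threshold. Of 12 Tcf/Lef factors and cofactors, 6 were called (50% against 41.9%), 1 higher in MDA-MB-231 and 5 in MDA-MB-436. LEF1 was at 11.3 and 9.54 CPM in MDA-MB-231 and 12.8 and 13.4 CPM in MDA-MB-436 and TCF7L2 at 21.5 and 20.2 CPM in MDA-MB-231 and 11.3 and 11.4 CPM in MDA-MB-436, neither past the threshold, and TCF7 was higher in MDA-MB-436, at 4 and 3.48 CPM in MDA-MB-231 and 11.4 and 11.7 CPM in MDA-MB-436 (log2 fold change −1.63 ± 0.13). The Groucho co-repressors TLE3 and TLE4 differed in opposite directions. TLE3 was at 229.8 and 220.2 CPM in MDA-MB-231 and 15.7 and 16.6 CPM in MDA-MB-436 (log2 fold change 3.80 ± 0.07). TLE4 was at 0.259 and 0.341 CPM in MDA-MB-231 and 56.3 and 57.7 CPM in MDA-MB-436 (log2 fold change −7.55 ± 0.14), with no overlap between the lines' libraries.

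The feedback targets, often read as a measure of pathway activity, did not share a direction. AXIN2 was at 9.03 and 10.4 CPM in MDA-MB-231 and 2.15 and 2.45 CPM in MDA-MB-436 (log2 fold change 2.09 ± 0.15). RNF43, the ubiquitin ligase that removes Frizzled, was at 8.18 and 7.76 CPM in MDA-MB-231 and 0.224 and 0.297 CPM in MDA-MB-436 (log2 fold change 4.92 ± 0.25), both higher in MDA-MB-231. NKD1 and NKD2, which bind Dishevelled, were higher in MDA-MB-436, NKD1 at 0.111 and 0.0378 CPM in MDA-MB-231 and 3.37 and 3.45 CPM in MDA-MB-436 and NKD2 with 2 and 2 counts in MDA-MB-231 and 788 and 674 in MDA-MB-436. ZNRF3, the paralogue of RNF43, was at 12.4 and 11.2 CPM in MDA-MB-231 and 26.5 and 27.3 CPM in MDA-MB-436 (log2 fold change −1.19 ± 0.09), and SP5 was level at 5.07 and 5.49 CPM in MDA-MB-231 and 4.36 and 4.35 CPM in MDA-MB-436. Of the 8 targets, 3 were higher in MDA-MB-231, 4 in MDA-MB-436 and 1 was not called. The same 7 calls were made in the 7TGP-POS pair and 5 of them in standard serum, where AXIN2 (0.96) and ZNRF3 (−0.89) were not called. The letters ATCAAAG, a core of the Tcf/Lef site, stood on either strand in the 250 bases before the start of SP5 and of none of the other 4 targets with a RefSeq promoter (GRCh38.p14), against 1.37% of the 12754 tested genes with a promoter.

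**Figure D3:**
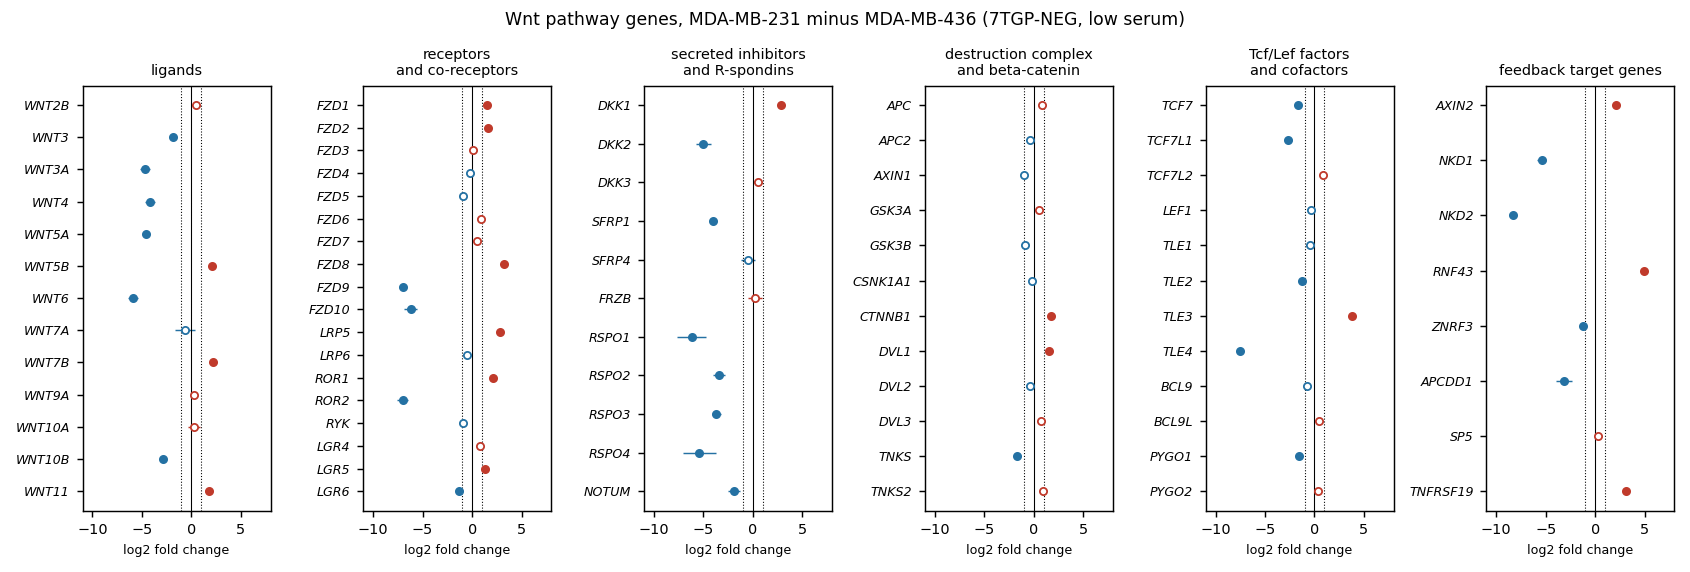
Log2 fold change (MDA-MB-231 minus MDA-MB-436) of each tested Wnt pathway gene by role in the 7TGP-NEG sublines in low serum, with 1 point per gene and bars of 1 standard error. Filled points passed the threshold, and dotted lines mark a log2 fold change of 1 in each direction. Secreted inhibitors and R-spondins lie mostly to the left, and genes of the destruction complex lie near 0.

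No interferon is named in the protocols. Of 40 tested interferon-stimulated genes, 24 were higher in MDA-MB-436 and 6 in MDA-MB-231 (75% called against 41.9%), and the median log2 fold change was −1.42. These genes are known to be driven through the interferon-stimulated response element (ISRE), to which a complex of STAT factors and IRF9 binds. The promoters of 4 members are shown, 3 higher in MDA-MB-436 and then IFITM1, higher in MDA-MB-231, as the bases just before the RefSeq start (GRCh38.p14), with matches on either strand to GAAA, any 2 bases and GAAA in capitals. Overlapping matches form 1 run. The genes shown here and below were chosen after their values were seen.
IFI44L: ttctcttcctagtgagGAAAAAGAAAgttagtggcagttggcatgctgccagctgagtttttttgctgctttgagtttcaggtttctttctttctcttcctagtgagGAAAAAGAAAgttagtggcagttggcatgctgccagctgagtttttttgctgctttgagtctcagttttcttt
ISG15: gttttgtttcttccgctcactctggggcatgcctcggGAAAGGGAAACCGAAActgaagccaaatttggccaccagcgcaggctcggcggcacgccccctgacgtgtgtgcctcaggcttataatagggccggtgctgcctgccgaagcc
IFIT1: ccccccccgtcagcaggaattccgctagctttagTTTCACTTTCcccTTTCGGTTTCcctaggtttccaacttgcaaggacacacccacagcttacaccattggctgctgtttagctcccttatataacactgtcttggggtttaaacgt
IFITM1: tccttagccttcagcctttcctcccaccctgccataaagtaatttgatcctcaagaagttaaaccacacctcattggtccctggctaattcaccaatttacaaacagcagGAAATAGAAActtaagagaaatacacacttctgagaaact
These windows lie at chr1:78620268-78620447, chr1:1013347-1013496, chr10:89392473-89392622 and chr11:313890-314039, all on the plus strand. Among the 32 members with a RefSeq promoter, 18 (56.2%) held this motif in the 250 bases before the start, against 2.51% of the 12754 tested genes with a promoter. It was found in 12 of 19 members higher in MDA-MB-436 and in 4 of 5 higher in MDA-MB-231, so that members of both directions carried it. The list was made of genes known to respond to interferon, so its share above that of all genes follows from its making. A match to these letters does not show that a factor was bound.

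IFI44L was at 4.11 and 4.69 CPM in MDA-MB-231 and 200.3 and 182 CPM in MDA-MB-436, with a log2 fold change of −5.44 ± 0.09 (adjusted p = 2.25e-23, edgeR). ISG15, a ubiquitin-like modifier, was at 84.4 and 84.5 CPM in MDA-MB-231 and 252 and 271 CPM in MDA-MB-436 (log2 fold change −1.63 ± 0.05). IFIT1, which binds viral RNA caps, was at 56.1 and 54.6 CPM in MDA-MB-231 and 175 and 172 CPM in MDA-MB-436 (log2 fold change −1.65 ± 0.06). All libraries of MDA-MB-436 lay above those of MDA-MB-231 for the 3 genes. The largest differences were those of the neighbours RSAD2 (viperin) and CMPK2 (a mitochondrial nucleotide kinase) on chromosome 2. RSAD2 was at 0.777 and 1.14 CPM in MDA-MB-231 and 209.5 and 208 CPM in MDA-MB-436 (log2 fold change −7.77 ± 0.10). CMPK2 was at 0.074 and 0.151 CPM in MDA-MB-231 and 81.8 and 85.9 CPM in MDA-MB-436 (log2 fold change −9.49 ± 0.15). Of the sensors, IFIH1 (MDA5) was at 17.9 and 18.6 CPM in MDA-MB-231 and 199 and 203 CPM in MDA-MB-436 (log2 fold change −3.46 ± 0.06), while RIGI did not pass the threshold (−0.36 ± 0.05). STAT2 (0.82 ± 0.06) and IRF7 (−0.79 ± 0.07) were not called.

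IFITM1 was at 18.7 and 19.3 CPM in MDA-MB-231 and 1.67 and 1.71 CPM in MDA-MB-436, a log2 fold change of 3.49 ± 0.14 in the other direction. OAS2 (2.78 ± 0.08), XAF1 (2.75 ± 0.16), EPSTI1 (at least 10.3-fold), IFIT5 (2.19 ± 0.08) and IFI27 (2.40 ± 0.08) made up the rest of the 6 higher in MDA-MB-231. OAS2 lies within the same gene cluster as OAS1 and OAS3, which were higher in MDA-MB-436 (−1.25 ± 0.10 and −2.09 ± 0.05). IFNB1, the interferon beta gene, was at the floor in MDA-MB-231 and at 2.31 and 1.45 CPM in MDA-MB-436. In the 7TGP-POS pair 25 of the 40 genes were higher in MDA-MB-436 and 3 in MDA-MB-231, and in standard serum 27 and 4.

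A list of MHC class I chains, peptide processing genes and checkpoint ligands was mixed. Of its 26 genes, 6 were higher in MDA-MB-231 and 4 in MDA-MB-436 (38.5% called against 41.9%). The 6 class I chains leaned to MDA-MB-436, with 4 higher there and 1 in MDA-MB-231 (83.3% called, median log2 fold change −1.43). Of 9 checkpoint ligands 4 were higher in MDA-MB-231, and of 11 peptide processing genes 1 was. B2M, the shared light chain, was at 664 and 659 CPM in MDA-MB-231 and 1958 and 2056 CPM in MDA-MB-436 (log2 fold change −1.60 ± 0.06). HLA-C was at 42.1 and 41.9 CPM in MDA-MB-231 and 290.4 and 297 CPM in MDA-MB-436 (log2 fold change −2.81 ± 0.05), whereas HLA-B was level (0.11 ± 0.05) and HLA-E was higher in MDA-MB-231 (2.21 ± 0.06). Reads of these polymorphic and related genes may be shared between them. CD274 (PD-L1) was at 22.8 and 21.6 CPM in MDA-MB-231 and 7.63 and 6.5 CPM in MDA-MB-436 (log2 fold change 1.64 ± 0.10). Outside the list, the class II genes CD74 (invariant chain) and HLA-DPA1 were nearly absent from MDA-MB-436. CD74 was at 669.7 and 692 CPM in MDA-MB-231 and 0.802 and 0.483 CPM in MDA-MB-436 (log2 fold change 10.01 ± 0.10), and HLA-DPA1 had 1796 and 1786 counts in MDA-MB-231 and 1 and 3 in MDA-MB-436.

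NF-kB targets and cytokines were also more often higher in MDA-MB-436, in 19 of 37 cases, with 7 higher in MDA-MB-231 (70.3% called against 41.9%). The median log2 fold change was −1.30, or −0.79 with genes at the floor set to their bound. NF-kB dimers bind the kB site, and 4 members higher in MDA-MB-436 are shown with matches on either strand to GGG, any 2 bases and TTTCC in capitals.
IL6: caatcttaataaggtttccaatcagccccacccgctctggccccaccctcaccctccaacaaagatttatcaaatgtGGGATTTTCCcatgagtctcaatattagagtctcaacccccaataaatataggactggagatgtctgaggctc
CCL20: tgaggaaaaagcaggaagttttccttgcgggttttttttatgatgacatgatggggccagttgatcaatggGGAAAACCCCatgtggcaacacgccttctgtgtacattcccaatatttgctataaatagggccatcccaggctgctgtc
CXCL5: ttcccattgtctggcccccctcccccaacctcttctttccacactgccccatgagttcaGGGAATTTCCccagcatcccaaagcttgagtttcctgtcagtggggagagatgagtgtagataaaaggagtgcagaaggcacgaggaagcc
CXCL2: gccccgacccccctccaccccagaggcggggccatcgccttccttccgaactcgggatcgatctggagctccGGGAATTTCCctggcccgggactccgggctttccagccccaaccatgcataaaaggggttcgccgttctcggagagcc
The windows of IL6 and CCL20 lie at chr7:22727050-22727199 and chr2:227813692-227813841 on the plus strand, and those of CXCL5 and CXCL2 at chr4:73998678-73998827 and chr4:74099196-74099345 on the minus strand. The motif was found in 13 of the 30 members with a promoter (43.3%), against 1.91% of the tested genes with one. It stood in 9 of 16 members higher in MDA-MB-436, in 0 of 5 higher in MDA-MB-231 and in 4 of 9 not called. The list was made of known NF-kB targets and cytokines, so its share above that of all genes follows from its making. The split by direction was not tested, and a match does not show binding.

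IL6 was at 1.78 and 2.01 CPM in MDA-MB-231 and 35.6 and 35.9 CPM in MDA-MB-436, with a log2 fold change of −4.24 ± 0.12 (adjusted p = 1.25e-29, edgeR). CCL20, a chemokine for CCR6-bearing cells, was at 0.629 and 0.681 CPM in MDA-MB-231 and 40.0 and 40.7 CPM in MDA-MB-436 (log2 fold change −5.94 ± 0.15). CXCL2, a neutrophil chemokine, was at 6.29 and 6.4 CPM in MDA-MB-231 and 66.4 and 65.4 CPM in MDA-MB-436 (log2 fold change −3.38 ± 0.08). CXCL5 had 1 and 0 counts in MDA-MB-231 and 349 and 310 in MDA-MB-436 and MDA-MB-436 was at least 101-fold higher. In each of these the libraries of MDA-MB-436 lay above those of MDA-MB-231. IL1A was at 3.96 and 4.09 CPM in MDA-MB-231 and 88.1 and 87.3 CPM in MDA-MB-436 and IL1B at 2.67 and 4.2 CPM in MDA-MB-231 and 66.6 and 67.2 CPM in MDA-MB-436, the interleukins that themselves activate NF-kB, and TNFAIP3 (A20), its feedback inhibitor, at 19.2 and 19.7 CPM in MDA-MB-231 and 323 and 311 CPM in MDA-MB-436 (log2 fold change −4.03 ± 0.06). The subunits NFKB1 (−0.51 ± 0.05) and RELA (−0.18 ± 0.08) and the inhibitor NFKBIA (−0.26 ± 0.05) did not pass the threshold. Cytokines higher in MDA-MB-231 were of another kind: CSF2 (GM-CSF) was at 32.4 and 35.1 CPM in MDA-MB-231 and 0.449 and 0.297 CPM in MDA-MB-436 (log2 fold change 6.46 ± 0.15), IL11 at 29.2 and 27.7 CPM in MDA-MB-231 and 0.673 and 0.891 CPM in MDA-MB-436 (log2 fold change 5.19 ± 0.13), and TGFB1 and TGFB2 differed by 2.07 ± 0.10 and 1.86 ± 0.06. CXCL8 (−0.37 ± 0.06) and CXCL6, at the floor in both lines, were not called.

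The plot of cytokine and interferon genes sets the line difference of the 7TGP-NEG sublines beside that of the 7TGP-POS sublines, which share no library with it. Between the 7TGP-POS sublines 12 NF-kB genes were higher in MDA-MB-231 and 11 in MDA-MB-436, so that the list leaned to neither line, and in standard serum 9 and 15. Of the 26 NF-kB genes called between the 7TGP-NEG sublines, 16 had the same call between the 7TGP-POS sublines, and of the 30 interferon genes 26 did. IL1B went from −4.29 to −0.45 (difference 3.84, adjusted p = 1.94e-24, edgeR interaction), IL6 to −0.99 (difference 3.25, adjusted p = 6.77e-20, edgeR interaction) and CCL2 from −6.11 to −1.83. PTGS2 went from −0.50 to 2.47. For RSAD2 the difference of differences was −0.62 (adjusted p = 0.0844, edgeR interaction).

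**Figure D4:**
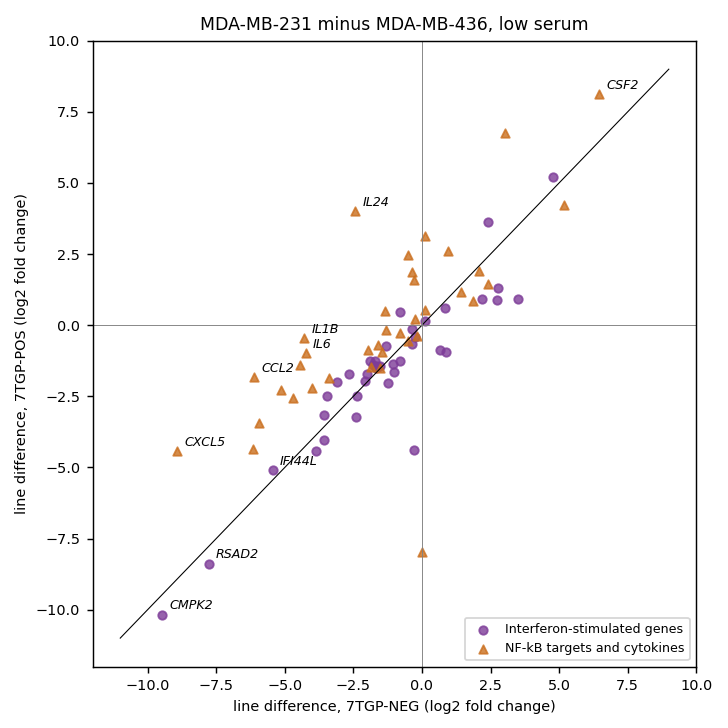
Log2 fold change between the lines (MDA-MB-231 minus MDA-MB-436) in the 7TGP-NEG sublines (x axis) and in the 7TGP-POS sublines (y axis), low serum, with 1 point per tested gene of the interferon-stimulated list (circles) and the NF-kB list (triangles). The diagonal marks equal differences. Most interferon genes lie near the diagonal, and many NF-kB genes lie above it, with IL1B at −4.29 and −0.45.

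HOX genes, which record the position of a cell's origin along the body axis, had a median log2 fold change of −3.41 over 37 tested genes, or −1.85 with genes at the floor set to their bound and −0.89 at the mildest of the alternatives tried, with 26 higher in MDA-MB-436 and 5 in MDA-MB-231 (83.8% called against 41.9%). In limma on log2(TPM + 1) the counts were 17 and 4. In the HOXA cluster 10 of 11 were higher in MDA-MB-436, and HOXA3, HOXA4, HOXA5, HOXA6, HOXA10 and HOXA11 on chromosome 7 were at the floor in MDA-MB-231. HOXA10 had 3 and 2 counts in MDA-MB-231 and 444 and 397 in MDA-MB-436 and MDA-MB-436 was at least 129-fold higher. HOXA13, the last gene of the cluster, was expressed in both, at 2.3 and 1.59 CPM in MDA-MB-231 and 1.25 and 1.37 CPM in MDA-MB-436. The libraries of the lines thus lay close for HOXA13 and far apart for its neighbours. In the HOXC cluster, HOXC10, HOXC11 and HOXC13 were at the floor in MDA-MB-231 and HOXC13 was at 9.01 and 9.51 CPM in MDA-MB-436, whereas HOXC6 was at 2.78 and 2.27 CPM in MDA-MB-231 and 10.4 and 11 CPM in MDA-MB-436 and HOXC9 at 1.04 and 0.946 CPM in MDA-MB-231 and 6.61 and 6.61 CPM in MDA-MB-436. The HOXB cluster had no common direction, with 3 genes higher in each line: HOXB9 was at 22.6 and 21.8 CPM in MDA-MB-231 and 6.03 and 7.65 CPM in MDA-MB-436 (log2 fold change 1.71 ± 0.10), HOXB7 at 1.15 and 0.53 CPM in MDA-MB-231 and 8.59 and 9.47 CPM in MDA-MB-436 (log2 fold change −3.41 ± 0.21) and HOXB13 had 1 and 0 counts in MDA-MB-231 and 125 and 108 in MDA-MB-436. HOXD1 (3.32 ± 0.21) was higher in MDA-MB-231 and HOXD8 (at least 29.8-fold) in MDA-MB-436. In standard serum 26 HOX genes were higher in MDA-MB-436 and 4 in MDA-MB-231 among 36 tested.

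**Figure D5:**
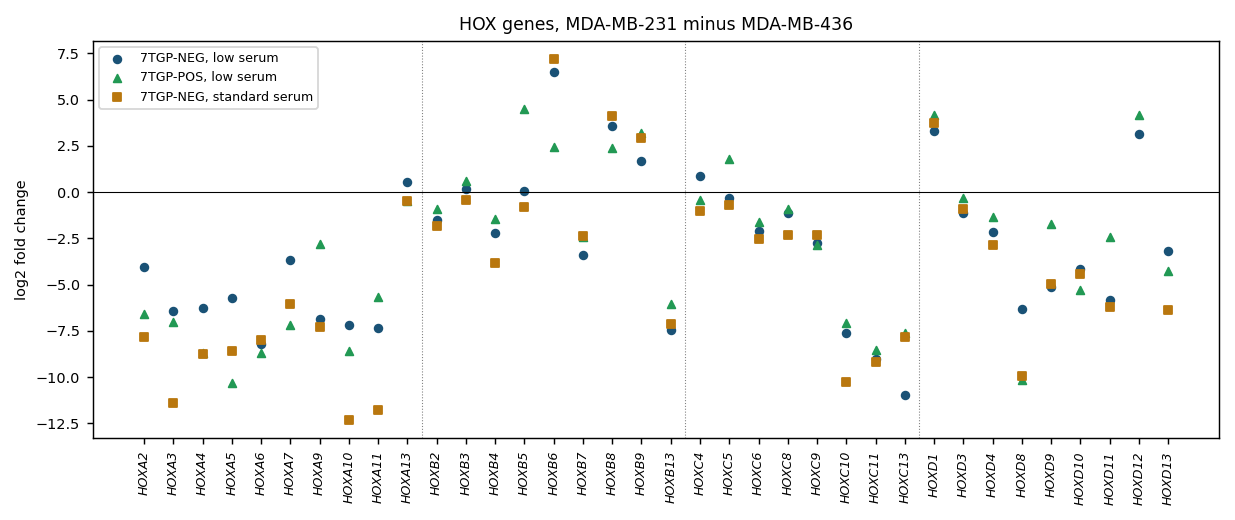
Log2 fold change (MDA-MB-231 minus MDA-MB-436) of tested HOX genes in cluster and paralogue order, for the 7TGP-NEG and the 7TGP-POS sublines in low serum and the 7TGP-NEG sublines in standard serum. HOXA2 to HOXA11 lie well below 0 in all 3 pairs and HOXA13 lies near 0. Fitted values of genes at the floor in 1 line depend on the prior count and are not bounds.

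The differences were also summarised along the chromosomes. Over 257 windows of 50 neighbouring genes that averaged at least 1 CPM in either line, the median log2 fold change ran from −2.12 to 1.72, and 126 windows had a median beyond 0.5 in either direction, 68 of them higher in MDA-MB-231. The highest was on chromosome 6 (GRCh37, FKBP5 to RPL7L1, 35541362 to 42847354), where 41 of 50 genes were higher in MDA-MB-231 and 2 in MDA-MB-436. The medians there were 1.46 between the 7TGP-POS sublines and 1.79 in standard serum. The lowest was at the start of chromosome 5 (PLEKHG4B to BASP1, 92283 to 17065707), with 41 of 50 genes higher in MDA-MB-436. In that window the median was −2.13 in standard serum but −0.18 between the 7TGP-POS sublines. The median difference of 7TGP-POS minus 7TGP-NEG there was −1.45 within MDA-MB-436 and 0.30 within MDA-MB-231, on log2 CPM with 0.1 added. By whole chromosome, X had the lowest median (−0.82 over 458 genes, 196 higher in MDA-MB-436 and 51 in MDA-MB-231), and chromosomes 6 and 17 the highest (both 0.49). Whether DNA copy number moved with these values was not tested.

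Metabolic genes separated by pathway. Of 14 serine and one-carbon enzymes, 9 were higher in MDA-MB-436 and 1 in MDA-MB-231 (71.4% called against 41.9%), with a median log2 fold change of −1.13. PHGDH, the first enzyme of serine synthesis, was at 38.3 and 40.7 CPM in MDA-MB-231 and 518 and 532 CPM in MDA-MB-436 (log2 fold change −3.73 ± 0.06), PSAT1, the second, at 45.9 and 44.1 CPM in MDA-MB-231 and 267 and 276 CPM in MDA-MB-436 (log2 fold change −2.59 ± 0.06). MTHFD2, of the mitochondrial folate cycle, was at 39.7 and 37.7 CPM in MDA-MB-231 and 388 and 396 CPM in MDA-MB-436 (log2 fold change −3.34 ± 0.06). The 7TGP-POS pair gave the same call for 7 of the 10, and standard serum for 4, with 3 genes higher in MDA-MB-231 there. In standard serum PSAT1 was at 0.04 and PHGDH at −1.78. Of 20 cholesterol synthesis enzymes, 6 were higher in MDA-MB-436 and 0 in MDA-MB-231 (30% called against 41.9%). In standard serum the order was the reverse, with 2 higher in MDA-MB-436 and 8 in MDA-MB-231, and in the 7TGP-POS pair the counts were 3 and 1. SQLE (squalene epoxidase) was at 53.5 and 54.2 CPM in MDA-MB-231 and 719 and 720.2 CPM in MDA-MB-436 (log2 fold change −3.74 ± 0.05). HMGCS1 was at 299.8 and 303 CPM in MDA-MB-231 and 1127 and 1119 CPM in MDA-MB-436 (log2 fold change −1.90 ± 0.05). Its difference was −0.16 in the 7TGP-POS pair and 0.13 in standard serum, neither called, whereas SQLE was called in both (−3.29 and −2.20). HMGCS1 lies in a chromosome 5 window, DROSHA to CCL28, in which 37 of 50 genes were higher in MDA-MB-436. The median of that window was −1.56 here, −0.58 in the 7TGP-POS pair and −1.30 in standard serum.

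Glycolysis and hypoxia genes were higher in MDA-MB-231 in 14 of 32 cases and in MDA-MB-436 in 4 (56.2% called against 41.9%). In the 7TGP-POS pair these counts were 15 and 3, and in standard serum 9 and 8. SLC2A1 (GLUT1) was at 454 and 426 CPM in MDA-MB-231 and 145 and 151 CPM in MDA-MB-436 (log2 fold change 1.57 ± 0.05), PKM at 5795 and 5997 CPM in MDA-MB-231 and 1325 and 1393 CPM in MDA-MB-436 (log2 fold change 2.12 ± 0.06). LDHA was at 1356 and 1409 CPM in MDA-MB-231 and 569 and 581 CPM in MDA-MB-436 (log2 fold change 1.27 ± 0.05). In standard serum SLC2A1 (0.61) and LDHA (0.21) were not called and PKM (1.37) was. GAPDH did not pass the threshold (−0.74 ± 0.05). The lactate transporters differed in opposite directions. SLC16A1 (MCT1) was at 0.629 and 0.757 CPM in MDA-MB-231 and 246 and 244 CPM in MDA-MB-436 (log2 fold change −8.46 ± 0.10, adjusted p = 9.35e-44, edgeR). SLC16A3 (MCT4) was at 774 and 800.4 CPM in MDA-MB-231 and 197 and 196 CPM in MDA-MB-436 (log2 fold change 2.00 ± 0.05). MDA-MB-231 thus expressed SLC16A3 and hardly any SLC16A1, and MDA-MB-436 expressed both. Of 8 hypoxia response genes, 5 were higher in MDA-MB-231, among them NDRG1 (2.90 ± 0.05) and VEGFA (2.04 ± 0.08), and 0 in MDA-MB-436, against 2 in each line in standard serum.

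Among stem-cell markers, 7 of 16 were higher in MDA-MB-231 and 4 in MDA-MB-436 (68.8% called against 41.9%). ALDH1A3, the main aldehyde dehydrogenase behind the ALDEFLUOR assay in breast cancer cells, was at 5.55 and 6.51 CPM in MDA-MB-231 and 593 and 589.8 CPM in MDA-MB-436 (log2 fold change −6.62 ± 0.07). SOX9 (2.95 ± 0.06) and NES (nestin, 7.29 ± 0.11) were higher in MDA-MB-231 and SOX2 in MDA-MB-436, at 0.518 and 0.492 CPM in MDA-MB-231 and 2.12 and 2.41 CPM in MDA-MB-436. BMP4 and BMP7 differed in opposite directions: BMP4 was at 212 and 211 CPM in MDA-MB-231 and 0.545 and 1.15 CPM in MDA-MB-436 and BMP7 at 0.037 and 0.189 CPM in MDA-MB-231 and 29.1 and 29.6 CPM in MDA-MB-436. Their antagonists also differed, with NOG (noggin) at 40.4 and 42.6 CPM in MDA-MB-231 and 0.321 and 0.334 CPM in MDA-MB-436 and GREM1 (gremlin) at 0.148 and 0.189 CPM in MDA-MB-231 and 32.1 and 29 CPM in MDA-MB-436. The Notch ligand JAG1 was at 547 and 548 CPM in MDA-MB-231 and 14 and 14.8 CPM in MDA-MB-436 (log2 fold change 5.25 ± 0.06), and the receptor NOTCH3 at 9.81 and 10.5 CPM in MDA-MB-231 and 76.8 and 80.4 CPM in MDA-MB-436 (log2 fold change −2.95 ± 0.07), while NOTCH1 and NOTCH2 did not pass the threshold (0.09 ± 0.09 and −0.30 ± 0.05). TGFBR2 was at 886 and 907 CPM in MDA-MB-231 and 65.7 and 63.8 CPM in MDA-MB-436 (log2 fold change 3.79 ± 0.06). Cancer-testis antigens, normally limited to germ cells, differed in both directions. Of 13, 5 were higher in MDA-MB-231 and 4 in MDA-MB-436 (69.2% called against 41.9%). MAGEA4 was at 0.666 and 0.681 CPM in MDA-MB-231 and 638 and 669.7 CPM in MDA-MB-436 and PRAME at 0.074 and 0.303 CPM in MDA-MB-231 and 119 and 118 CPM in MDA-MB-436, both in MDA-MB-436, and MAGEC1 was at 17.7 and 18.7 CPM in MDA-MB-231 and 0 and 0.0743 CPM in MDA-MB-436. Members of the MAGE family are similar in sequence and may share reads.

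Some of the largest differences lay outside all lists. Among genes with at least 10 counts in each library, the largest was CST1 (cystatin SN), at 1499.5 and 1626 CPM in MDA-MB-231 and 0.705 and 0.743 CPM in MDA-MB-436 (log2 fold change 11.07 ± 0.10). On the side of MDA-MB-436 the largest was S100A9, followed by MAGEA4. S100A9, a calgranulin of myeloid and inflamed epithelial cells, was at 0.407 and 0.568 CPM in MDA-MB-231 and 508 and 544 CPM in MDA-MB-436 (log2 fold change −10.06 ± 0.10). ADGRF5, an adhesion receptor, was at 664 and 686 CPM in MDA-MB-231 and 0.962 and 1.11 CPM in MDA-MB-436, and ANPEP (CD13), a surface peptidase, at 0.74 and 0.492 CPM in MDA-MB-231 and 148 and 142 CPM in MDA-MB-436. Among genes at the floor in MDA-MB-231, SMO, the Hedgehog signal transducer, had 1 and 2 counts in MDA-MB-231 and 3033 and 2627 in MDA-MB-436 and MDA-MB-436 was at least 867-fold higher. MGMT, the DNA repair enzyme that removes alkyl groups from guanine, had 1 and 3 counts in MDA-MB-231 and 1583 and 1455 in MDA-MB-436, and the imprinted gene NDN had 0 and 1 counts in MDA-MB-231 and 1635 and 1401 in MDA-MB-436. Among genes at the floor in MDA-MB-436, MYL9, a myosin light chain, had 1461 and 1461 counts in MDA-MB-231 and 1 and 0 in MDA-MB-436 and CBFB, the partner of RUNX factors, had 2034 and 1958 counts in MDA-MB-231 and 0 and 3 in MDA-MB-436. CBFB was at 24.1 CPM (mean) in MDA-MB-436 7TGP-POS and at the floor only in the 7TGP-NEG subline of that line. The line difference of CBFB was 1.40 between 7TGP-POS sublines (interaction −8.97, adjusted p = 1.26e-28, edgeR), and it was called higher in MDA-MB-231 in standard serum too. MYL9 and LOXL1 also differed less between the 7TGP-POS sublines, at 2.12 and 0.92.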

How the data were processed

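RNA-seq was available for 16 libraries of sorted MDA-MB-231 and MDA-MB-436 sublines, with 2 replicates per group. Per the study's methods the authors aligned reads to ribosomal RNA with Bowtie and to hg19 with STAR (2.6.1a in the submitters' processing notes, which also name edgeR 3.22.5 and limma) and counted reads per Gencode gene. The deposited tables hold raw counts for 57820 genes with the authors' TPM beside them. The kits keep strand, but the strand setting of the counting is not given in the sources used here, so values of genes that overlap on opposite strands are uncertain. Low serum libraries were depleted of ribosomal RNA per the methods, whereas the labels name a polyadenylated RNA kit.

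The 8 low serum libraries were tested together at protein-coding genes whose counts summed to 10 or more, in R 4.3.3 with edgeR 4.0.16 (TMM factors, robust quasi-likelihood test, 4 groups), and the standard serum libraries in a model of their own. The code was first tested on simulated data. Calls needed an adjusted p under 0.05 and a log2 fold change of 1 or more in either direction, and the floor was 3 counts per library. Alternatives included DESeq2 1.42.0, limma 3.58.1 on log2(TPM + 1), other filters, a replicate block and leaving out each replicate. Gene lists were described by counts and medians, with no test of a list. Promoter sequences came from RefSeq (GRCh38.p14) and gene positions from the annotation on GRCh37.

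The members and the lists were chosen with earlier results of these data known. Genes were named by a fixed rule: a core set, up to 4 called members of each direction per list, and the 10 largest DEGs of each direction among genes with at least 10 counts in each library or at the floor in 1 line. Of 224 genes with values in the text, 141 followed this rule and 83 were chosen after their values were seen. Total counts were about equal across the 4 libraries. Standard errors come from the quasi-likelihood fit, which takes in the spread between cultures, and bounds hold no term for that spread. Some genes that the rule names are not reported here.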

Additional observations from a re-analysis of the deposited data

Results flagged for a closer look

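The line difference in low serum was available a second time, between the 7TGP-POS sublines. Genes with values in the text were examined for a line difference that was not the same in both reporter states, by the interaction in edgeR's quasi-likelihood model (adjusted p under 0.05 and an absolute change of at least 1). This held for 74 of the 224 genes, and for 11.7% of all genes tested. In 54 of the 74 the absolute difference between the lines was smaller in the 7TGP-POS sublines, and in 6 it had the opposite sign. Many of the 224 were named for large differences between the 7TGP-NEG sublines, whose libraries also enter the interaction. That choice by itself favours flagged genes and smaller differences between the 7TGP-POS sublines, so neither the share nor the 54 is read as a result. The 17 genes with a change of at least 3 in either direction are given here, each as the log2 difference of MDA-MB-231 minus MDA-MB-436 in the 7TGP-NEG and then in the 7TGP-POS pair. Fitted values of genes at the floor in 1 group depend on the prior count and are no bounds. No cause of these changes was tested.

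In IL24 and FZD10 the difference became more positive, but the levels moved in different lines. IL24, a cytokine of the interleukin-10 family, had a line difference of −2.44 between the 7TGP-NEG sublines and 4.0 between the 7TGP-POS sublines, a change of 6.44. Its mean level in the 7TGP-NEG and then the 7TGP-POS subline was 0.28 and 5.99 CPM in MDA-MB-231 and 1.52 and 0.37 CPM in MDA-MB-436. For the Frizzled receptor FZD10 the line difference changed by 6.37, from −6.23 to 0.15. FZD10 was at 1.75 and 0.072 CPM (means) in MDA-MB-436 and at 0.019 and 0.078 CPM in MDA-MB-231. The value of 0.15 thus compares 2 groups with hardly any counts. The Notch receptor NOTCH3 went the other way, changing by −3.05, from −2.95 to −6.00.

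Among the genes past this cut, the inflammatory cytokines CXCL5, IL1A, IL1B and IL6 each had a smaller difference between the 7TGP-POS sublines. The changes were CXCL5 by 4.49 (from −8.93 to −4.44), IL1A by 3.03 (from −4.44 to −1.41), IL1B by 3.84 (from −4.29 to −0.45) and IL6 by 3.25 (from −4.24 to −0.99). The epithelial genes CLDN1 by 3.60 (from −3.98 to −0.38) and FOXA1 by 4.18 (from −6.36 to −2.18) moved in the same way. Cytokines with changes under the cut had no common course. CCL20 (from −5.94 to −3.44) and CXCL2 (from −3.38 to −1.85) differed less between the 7TGP-POS sublines. CXCL8 (from −0.37 to 1.89) and CSF2 (from 6.46 to 8.12) differed more there.

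Matrix and contractile genes that were high in MDA-MB-231 and low in the 7TGP-NEG subline of MDA-MB-436 had smaller differences between the 7TGP-POS sublines. The changes were COL13A1 by −3.23 (from 9.28 to 6.06), COL6A3 by −4.42 (from 11.20 to 6.77), IGFBP7 by −5.05 (from 10.13 to 5.08), LOXL1 by −8.94 (from 9.86 to 0.92) and MYL9 by −9.18 (from 11.30 to 2.12). MLPH and CBFB, which are no matrix genes, changed likewise, CBFB by −8.97 (from 10.38 to 1.40) and MLPH by −6.29 (from 9.23 to 2.94). For MMP2 the difference was larger between the 7TGP-POS sublines, with a change of −3.77, from −4.45 to −8.22. Groups of 2 libraries were too small for a test of single samples against their group.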

How the results depend on the processing

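The 6732 DEGs between the 7TGP-NEG sublines became 12730 (6369 higher in MDA-MB-231 and 6361 higher in MDA-MB-436) by adjusted p alone, with no minimum fold change, and 10397 (5133 and 5264) when all 26962 genes of any biotype that passed the filter were tested. In limma on log2(TPM + 1) there were 5183, of which 1582 instead of 3292 were higher in MDA-MB-231 and 3601 instead of 3440 higher in MDA-MB-436, and the median of all genes moved from 0.01 to −0.19. DESeq2 gave 6348, edgeR with DESeq2's size factors 6721, no filter on low counts 6679, edgeR's own filter 6405, the 4 libraries alone 6693 and a test against a 2-fold change 5586. Leaving out 1 of the 4 libraries gave 6495 to 6544. Between the 7TGP-POS sublines, the 6245 calls were 5910 in DESeq2 and 6058 to 6116 with 1 library left out, and in standard serum the 7201 calls were 6773 in DESeq2 and 6909 to 7042 with 1 library left out.

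Replicate numbers did not pair the samples: deviations from the group means correlated at r = −0.02 across genes between the 7TGP-NEG groups, and no source ties the numbers to a shared day. With the replicate number as a block there were 6692 calls (3274 and 3418), of which 6683 were shared with the fit without it, 6218 between the 7TGP-POS sublines and 7171 in standard serum. The block changed the call of none of 224 named genes.

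Of the 224 named genes, DESeq2 changed no call, the test against a 2-fold change lost 4, adjusted p alone added 10, and limma on log2(TPM + 1) lost 13, added 1 and turned 3. The genes that turned under limma were CD44 at −0.17, KRT8 at −0.24 and ESR1 at −0.0068. With 1 library left out, ESR1, with at most 6 counts in any library, ran from −0.75 (without MDA-MB-436 replicate 2) to 4.65 (without MDA-MB-436 replicate 1) and lay at −0.45 without MDA-MB-231 replicate 2, and SPARC ran from −0.28 to 0.16 (without MDA-MB-436 replicate 1). None of these was called. List medians kept their sign under each alternative, except that of the markers of other cell types (−0.40 to 0.48, and −0.29 with genes at the floor at their bound). Counts of list members moved by over 1.5 times only by adjusted p alone and, for 10 counts, in limma, which called among others 17 instead of 26 HOX genes and 13 instead of 7 proliferation genes higher in MDA-MB-436 and 10 instead of 18 receptor tyrosine kinases and 7 instead of 14 Notch, BMP and TGF-beta genes higher in MDA-MB-231. The median of HOX genes ran from −3.49 to −0.89.

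With 2 cultures of 1 sorted pool per line, the tests speak of these cultures. Culture medium may have differed with the line and cannot be told apart from it. At these depths 3 counts, the floor set here, equal 0.112 CPM in MDA-MB-231 and 0.104 CPM in MDA-MB-436. Lower levels rest on very few counts per library. Sequence differences between paralogues and between the lines' alleles can move reads between genes, most of all in the HLA, MAGE and zinc finger families.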

Other observations

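Further runs of neighbouring expressed genes were at the floor in both libraries of 1 line, beside the HOX and CDKN2A regions described above. In MDA-MB-436, 4 zinc finger genes on chromosome 19 (ZNF100, ZNF43, ZNF257 and ZNF724, GRCh37 21905573 to 23433196) held 8 counts in all, at 1.82 to 16.0 CPM (means) in MDA-MB-231. A second run there of ZNF682, ZNF90 and ZNF486 (20107867 to 20311297) held 1 count, and another of ZNF626, ZNF66 and ZNF85 (20802745 to 21133503) held 0. These genes are similar in sequence, and reads may be shared among them. On chromosome X of MDA-MB-436 the genes PPP4R3C, DCAF8L1 and IL1RAPL1 (27478324 to 29974835) held 0 counts.

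In MDA-MB-231, BNC2, CNTLN and SH3GL2 on chromosome 9 (16409501 to 17797122) held 3 counts, against up to 39.0 CPM in MDA-MB-436. The heparan sulfate genes HS6ST2, GPC4 and GPC3 on chromosome X (131760043 to 133121127) held 5 counts, against 4.50 to 29.8 CPM in MDA-MB-436. Whether these regions were lost from the DNA was not tested.

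The letters TGACTCA, the site of AP-1 factors, stood on either strand in the 250 bases before the start of 2 of 13 matrix proteases and inhibitors with a RefSeq promoter and of 1 of 26 MAPK output genes, against 2.9% of the 12754 tested genes with a promoter.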
